A study of Mus musculus with 2 samples.

Results

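The genes described here are 10 genes of tryptophan breakdown and NAD metabolism, chosen by name: Ido1, Ido2, Kmo, Kynu, Haao, Nampt, Nmnat1, Naprt, Cd38 and Bst1. A row was at hand for 5 of the 10, Nampt, Nmnat1, Naprt, Cd38 and Bst1, among 17145 rows in all. Ido1, Ido2, Kmo, Kynu and Haao, the members that act on the route from tryptophan to quinolinic acid, were not analysed here, so the results below concern the salvage and the consumption of NAD. RNA was sequenced from primary mouse hepatic stellate cells, liver pericytes that become contractile, matrix-secreting myofibroblasts when the organ is injured or the cells are grown on plastic. Both cultures came from mice with the genotype Adar1f/f/Cre-ER, in which the gene for the RNA-editing enzyme ADAR1 is flanked by loxP sites and a recombinase is held inactive until it binds tamoxifen. One culture was given 100 nM of 4-OHT, the active tamoxifen metabolite, and the other vehicle. Both are labelled as culture activation for 4 days. The labels do not say when 4-OHT was added or how long it was present. The sources used here do not give the promoter that drives the recombinase, the ages of the mice or how many were pooled. The floxed gene itself was not analysed here, so its loss could not be checked. There was 1 library per group, so the spread between cultures is unknown and no statistical test was made.

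Cells make NAD along converging routes. The kynurenine pathway builds it from tryptophan, starting with the dioxygenases IDO1, IDO2 or TDO2, and its first enzyme IDO1 is a classical target of interferon. The Preiss-Handler route starts from nicotinic acid with NAPRT, and the salvage route recycles nicotinamide with NAMPT, whose product NMNAT1 turns into NAD in the nucleus. Sirtuins, ADP-ribosyltransferases (PARPs) and the surface enzymes CD38 and BST1 use NAD up and set nicotinamide free again. In liver, the complete route from tryptophan is chiefly a property of hepatocytes, whereas CD38 is abundant on leukocytes and macrophages.

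Nampt was the 1 gene of the 5 that was at least 2-fold higher with 4-OHT, and none was at least 2-fold lower. Levels are in FPKM, the number of fragments per kilobase of transcript and relative to library size. Over all 13558 genes that reached 1 FPKM in either library, 5.78% were higher by that size and 3.48% lower. Changes are given as log2 ratios of FPKM plus 1, with 4-OHT on top, and the added 1 shrinks the changes of weakly expressed genes. The median change of the 5 genes was 0.31, and that of all 13558 genes was 0.03, with quartiles of −0.25 and 0.30. That median of the 5 is the value of Nmnat1, and the 5 include Bst1, which reached 1 FPKM only with 4-OHT. In the authors' deposited table none of the 5 had a q-value under 0.05, beside 2.47% of all rows.

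The starts of Nampt and Nmnat1, which catalyse consecutive steps of salvage, are shown because Nampt passed the 2-fold size and Nmnat1 did not. The stretches are the 250 bases before the RefSeq transcript start on GRCm38.p6, read 5′ to 3′ on the gene's strand, with each CG dinucleotide in capitals. The Nampt stretch is chr12:32820085-32820334 on the plus strand and the Nmnat1 stretch is chr4:149485211-149485460 on the minus strand.
Nampt: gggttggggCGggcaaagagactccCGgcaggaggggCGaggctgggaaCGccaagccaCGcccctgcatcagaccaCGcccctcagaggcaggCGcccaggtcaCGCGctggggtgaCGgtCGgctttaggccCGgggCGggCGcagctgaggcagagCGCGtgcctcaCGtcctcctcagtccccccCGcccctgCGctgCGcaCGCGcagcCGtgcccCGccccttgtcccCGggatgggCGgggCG
Nmnat1: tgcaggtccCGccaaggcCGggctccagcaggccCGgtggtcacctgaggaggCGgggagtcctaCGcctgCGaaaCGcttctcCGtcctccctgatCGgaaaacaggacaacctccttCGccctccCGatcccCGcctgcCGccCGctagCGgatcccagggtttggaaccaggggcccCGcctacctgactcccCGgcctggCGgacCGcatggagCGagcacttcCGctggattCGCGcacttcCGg
The Nampt stretch holds 27 CG dinucleotides and the Nmnat1 stretch 24. Over windows of 300 bases, from 250 before to 50 after the start, Nampt had 36 CG dinucleotides, more than 93.8% of the 32851 RefSeq windows, and Nmnat1 had 28. Cd38 had 1 CG dinucleotide in its window, and the median over all windows was 7. In Cd38, all 250 bases before the RefSeq start lay within annotated exon of the gene in GENCODE M21. The Cd38 window therefore does not describe sequence upstream of that annotated gene. In Nampt, the printed stretch overlaps no annotated exon but lies inside the annotated gene, which starts at 32819545. It is thus upstream of the RefSeq start only, not of the whole annotated Nampt gene. The windows of Nampt, Nmnat1 and Cd38 were searched on both strands for motifs known from interferon-responsive promoters, the core of the interferon-stimulated response element, GAAA-NN-GAAA, and the interferon-gamma activated site, TTCNNNGAA. None of these windows held either motif, while 3.44% of all windows held the first and 8.30% the second. Naprt and Bst1 are named only.

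The salvage enzyme genes came first in the comparison. Nampt encodes nicotinamide phosphoribosyltransferase, the rate-limiting enzyme of NAD salvage, which is also secreted as the cytokine-like protein visfatin. The gene lies on chromosome 12, 32819545 to 32853349, plus strand (GRCm38). It was at 183 FPKM with 4-OHT and at 68.5 FPKM with vehicle, a log2 change of 1.40. The ratio of FPKM was 2.67, with a 95% counting interval of 2.61 to 2.73 that rests on about 24327 fragments with 4-OHT and 11472 with vehicle. These fragment numbers take its longest transcript of 4527 bases as the one sequenced, and the interval was 2.54 to 2.81 when the median transcript length was used. Intervals cover counting error only, not differences between cultures.

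Nampt was already among the more abundant transcripts with vehicle. Its level exceeded that of 97.8% of genes in the 4-OHT library and 94.0% in the vehicle library. Its change ranked 473rd from the top among the 13558 genes, and was larger in size than that of 95.0% of them. The authors' deposited table gave Nampt a p-value of 0.0101 and a q-value of 0.295, so this gene was not called there. A non-coding gene, Gdap10, lies within Nampt on the same strand and was at 14.2 FPKM with 4-OHT and 6.39 FPKM with vehicle.

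Nmnat1 encodes the nuclear enzyme that joins nicotinamide mononucleotide to an adenylate group, the last step of NAD synthesis. It lies on chromosome 4, 149467572 to 149485202, minus strand. It was at 7.93 FPKM with 4-OHT and 6.21 FPKM with vehicle, a log2 change of 0.31. The ratio was 1.28, with a counting interval of 1.14 to 1.43. The 2 consecutive steps of salvage therefore differed in size of change, and Nampt stood at 23.1 times the FPKM of Nmnat1 with 4-OHT and at 11.0 times with vehicle.

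Naprt, which encodes nicotinic acid phosphoribosyltransferase and opens the Preiss-Handler route, had the lowest level with 4-OHT and the lowest change of the 5. It lies on chromosome 15, 75890956 to 75894481, minus strand, and overlaps Eef1d over 277 bases on the same strand. Naprt was at 1.35 FPKM with 4-OHT and 2.12 FPKM with vehicle, a log2 change of −0.41. The ratio of 0.638 had a counting interval of 0.469 to 0.848, on about 71 fragments with 4-OHT and 141 with vehicle. Naprt thus lay below 1 in the ratio by more than the counting error but within 2-fold on the scale used here. In the authors' deposited table Naprt had a p-value of 0.818. Its neighbour Eef1d, a translation elongation factor gene whose shared fragments may have been split either way, was at 83.2 FPKM with 4-OHT and 118 FPKM with vehicle.

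**Figure D1:**
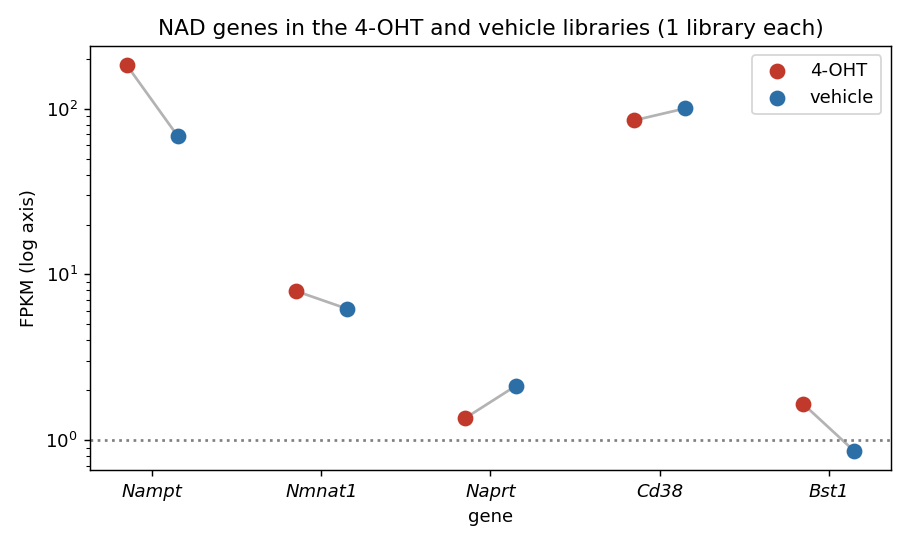
FPKM on a log axis for the 5 genes with a row, with the 4-OHT library in red at the left and the vehicle library in blue at the right of each pair, 1 library each, and a dotted line at 1 FPKM. Nampt and Cd38 lie far above the other genes, and their order differs between the libraries.

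The surface NAD-consuming enzymes form a pair of neighbouring genes on chromosome 5. Cd38 (43868553 to 43912375, plus strand) encodes the main NAD glycohydrolase of mammalian tissues, which also makes the calcium-mobilising messenger cyclic ADP-ribose. Bst1 (43818885 to 43843986, plus strand) encodes its paralogue CD157, a lipid-anchored enzyme with the same kind of activity. The genes are separated by 24566 bases.

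Cd38 was at 85.1 FPKM with 4-OHT and 100 FPKM with vehicle, a log2 change of −0.24. The ratio was 0.848, with a counting interval of 0.824 to 0.872. Cd38 exceeded 94.5% of genes in level with 4-OHT and 96.3% with vehicle, and 43.0% of the genes tested differed less in size between the libraries. Bst1 was at 1.65 FPKM with 4-OHT and 0.859 FPKM with vehicle, a log2 change of 0.51. Its ratio was 1.92 with a counting interval of 1.45 to 2.53, on about 135 fragments with 4-OHT and 89 with vehicle. The p-value of Bst1 in the authors' deposited table was 0.646. Bst1 passed the minimum of 1 FPKM only through the 4-OHT library. It also overlaps Fbxl5 on the opposite strand over 2754 bases, and the sources used here do not say whether counting used strand. The paralogues thus lay on opposite sides of 1, both within 2-fold, and Cd38 was at 51.7 times the FPKM of Bst1 with 4-OHT and 117 times with vehicle.

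**Figure D2:**
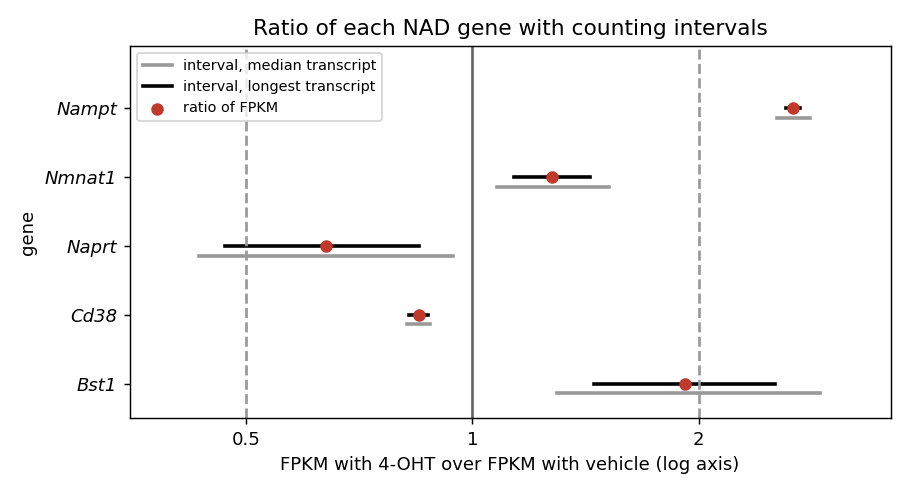
Ratio of FPKM, 4-OHT over vehicle, on a log axis for each of the 5 genes (red points), with 95% counting intervals that assume the longest annotated transcript (black) or the median transcript length (grey) and dashed lines at 2-fold. The Nampt interval of 2.61 to 2.73 lies above 2, and the Bst1 interval of 1.45 to 2.53 spans it.

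Nampt and Cd38 together made up nearly all of the FPKM of the 5 genes, in different proportions. Nampt held 65.6% of their summed FPKM with 4-OHT and 38.5% with vehicle. Cd38 held 30.5% with 4-OHT and 56.4% with vehicle. Nampt was thus at 2.15 times the FPKM of Cd38 in the 4-OHT library, and at 0.683 times in the vehicle library. Cd38 is only 1 of the genes whose enzymes use NAD. The 21 sirtuins and PARPs with a row summed to 985 FPKM with 4-OHT and 358 FPKM with vehicle. The ratios of Nampt to Cd38 therefore give no balance between NAD synthesis and use. These are transcript levels, and neither NAD nor enzyme activity was measured.

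**Figure D3:**
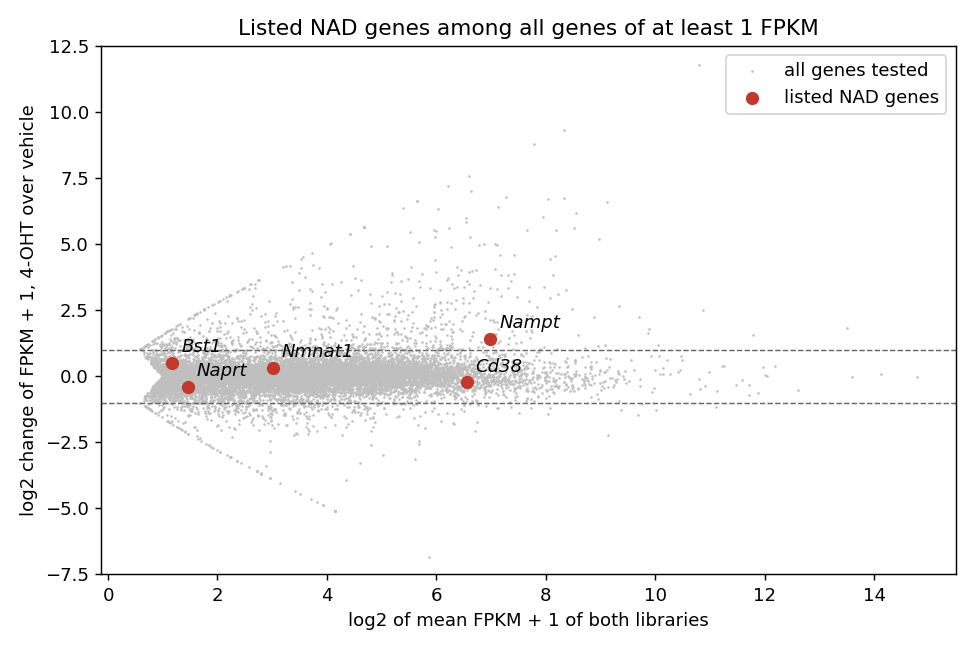
Log2 change of FPKM plus 1, 4-OHT over vehicle, against the log2 of the mean FPKM plus 1 of both libraries, for 13558 genes of at least 1 FPKM (grey) and the 5 listed NAD genes (red), with dashed lines at 2-fold. Nampt lies above the upper line at 1.40 and the other genes lie between the lines.

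Of 9 other kynurenine pathway genes, 6 had a row, 5 reached 1 FPKM and none of the 5 was 2-fold higher or lower, with a median change of −0.07. Beside the shares of 5.78% higher and 3.48% lower over all genes and their median of 0.03, these counts do not set the list apart. Afmid, the formamidase that follows IDO1 and TDO2, was at 2.32 FPKM with 4-OHT and 1.63 FPKM with vehicle (log2 change 0.33). Kyat1 and Kyat3, transaminases that divert kynurenine to kynurenic acid, had changes of 0.15 and −0.14, and Got2, a mitochondrial aminotransferase that can do the same, −0.23. Qprt, which leads from quinolinic acid into NAD synthesis, was below the minimum, at 0.456 FPKM with 4-OHT and 0.457 FPKM with vehicle.

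Genes that bring tryptophan into the cell and charge it onto tRNA included 3 that were at least 2-fold higher. Of 12 genes on the list of tryptophan transport, charging and the serotonin branch, 8 were tested, with a median change of 0.22. Of the 8, 3 were higher, beside 5.78% of all genes. None of the 8 was lower as deposited, beside 3.48% of all genes. With both libraries scaled to the same sum, or with a pseudocount of 0.1, 1 gene, Ddc, was lower. The ratio of FPKM of Ddc was 0.305. Wars, the cytosolic tryptophanyl-tRNA synthetase, was at 132 FPKM with 4-OHT and 38.1 FPKM with vehicle (log2 change 1.77). The authors' deposited table gave Wars a q-value of 0.00881, Slc3a2 a q-value of 0.105 and Slc7a5 a p-value of 0.632. Of the 3, 1 was thus called there, beside 2.47% of all rows. Slc3a2 and Slc7a5, the heavy and light chains of the LAT1 carrier of large neutral amino acids, had changes of 1.45 and 1.19, and with a pseudocount of 5 Slc7a5 lay within 2-fold. Slc3a2 was at 304 FPKM with 4-OHT and 111 FPKM with vehicle. Slc7a5 was at 23.3 FPKM with 4-OHT and 9.63 FPKM with vehicle. Ddc, the decarboxylase that completes serotonin synthesis, was at 0.539 FPKM with 4-OHT and 1.77 FPKM with vehicle (−0.85).

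The aryl hydrocarbon receptor, for which kynurenine is a ligand, and its targets were mixed in direction. Of 7 genes tested, 1 was lower and none higher, beside 3.48% lower and 5.78% higher over all genes. The median change was 0.16, or −0.06 when both libraries were scaled to the same sum. With a pseudocount of 0.1, 1 gene, Tiparp, was higher, and with a pseudocount of 5 or a minimum of 5 FPKM none was lower. The lower gene was Nqo1, a quinone reductase, at 1.71 FPKM with 4-OHT and 4.75 FPKM with vehicle (log2 change −1.09). Cyp1a1, the most used reporter of the receptor, was at 16.6 FPKM with 4-OHT and 22.5 FPKM with vehicle (−0.42), and Cyp1b1 had a change of −0.52. Tiparp, a target that itself encodes an ADP-ribosyltransferase, was at 28.8 FPKM with 4-OHT and 14.3 FPKM with vehicle (0.97), a ratio of FPKM of 2.02.

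Among the other genes of NAD synthesis, NADP and nicotinamide disposal, 13 were tested, 1 was at least 2-fold higher and none lower. The higher share was near the 5.78% of all genes, and the median change was −0.18. With both libraries scaled to the same sum, or with a pseudocount of 0.1, 1 gene, Nt5e, was lower. The higher gene was Pnp, purine nucleoside phosphorylase, which can split nicotinamide riboside into nicotinamide. Pnp was at 114 FPKM with 4-OHT and 39.0 FPKM with vehicle (log2 change 1.52), with a q-value of 0.0252 in the authors' deposited table. Its near-identical neighbour Pnp2 was at 5.05 FPKM with 4-OHT and 1.22 FPKM with vehicle, and the split of fragments between the copies is uncertain. Nt5e, the ectonucleotidase CD73, was at 2.43 FPKM with 4-OHT and 5.45 FPKM with vehicle (−0.91). Nudt12, a hydrolase of NADH and NADPH, had a change of −0.56. Nnt, the mitochondrial transhydrogenase, has 2 overlapping gene entries, which summed to 14.1 FPKM with 4-OHT and 22.3 FPKM with vehicle.

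**Figure D4:**
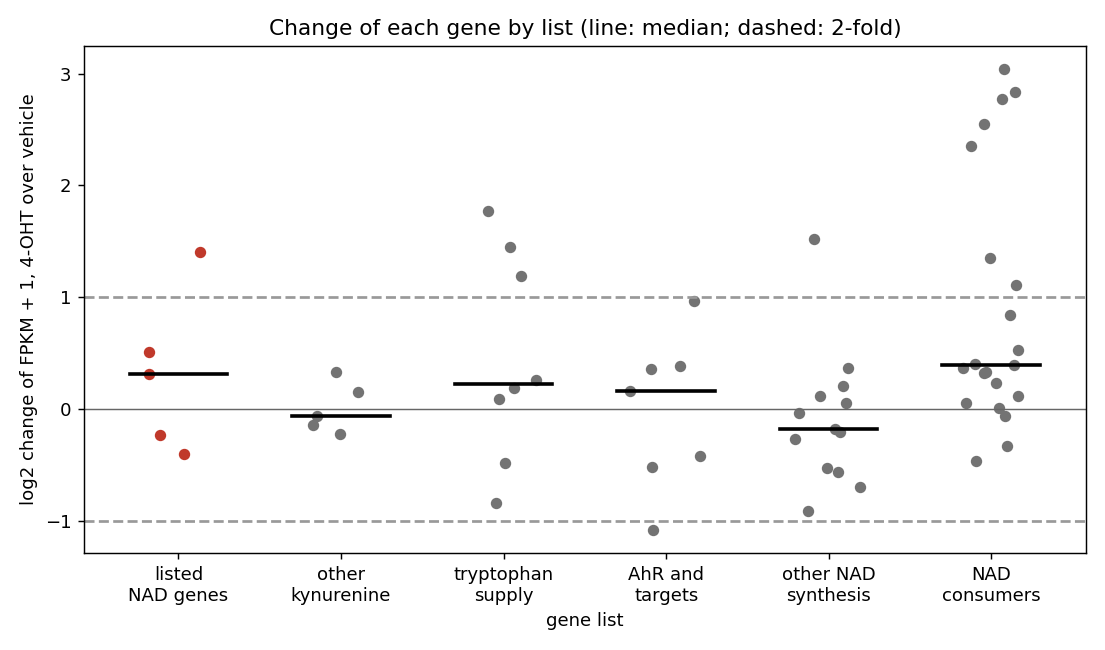
Log2 change of FPKM plus 1, 4-OHT over vehicle, for each tested gene of the 5 listed NAD genes (red) and of 5 related lists (grey), with the median of each list as a line and dashed lines at 2-fold. The NAD consumers reach 3.04, while the other kynurenine genes stay between −0.23 and 0.33.

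Of 21 NAD-consuming sirtuins and PARPs tested, 7 were at least 2-fold higher and none lower, with a median change of 0.39, beside the 5.78% of all genes that were higher. Whether this list differs from the others was not tested. The authors' deposited table called 4 genes of this list at a q-value under 0.05, Parp11, Parp12, Parp14 and Sirt1, beside 2.47% of all rows. Not called there were the higher genes Parp9 (q-value 0.131), Parp10 (0.896) and Parp8 (0.0858). By size of change, the 4 largest were Parp14 (3.04), Parp11 (2.84), Parp12 (2.77) and Parp9 (2.55). These are members of the PARP family known to be induced by interferon. Parp14, a mono-ADP-ribosyltransferase, was at 256 FPKM with 4-OHT and 30.2 FPKM with vehicle. Parp1, the DNA-damage-responsive enzyme and the largest nuclear consumer of NAD, was at 16.4 FPKM with 4-OHT and 20.9 FPKM with vehicle (−0.33). The remaining higher genes, named after their values were seen, were Parp10 (2.35), Sirt1 (1.35) and Parp8 (1.11). Parp8 lay within 2-fold, leaving 6 higher genes, with a pseudocount of 5 and when both libraries were scaled to the same sum. Sirt1, a nuclear NAD-dependent deacetylase, was at 30.1 FPKM with 4-OHT and 11.2 FPKM with vehicle, while Sirt2 to Sirt7 lay within 2-fold.

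The cultures held abundant transcripts of cells other than stellate cells. The 14 macrophage and Kupffer cell markers all had rows and summed to 4302 FPKM with 4-OHT and 6254 FPKM with vehicle. Lyz2, at 1353 FPKM with 4-OHT and 3050 FPKM with vehicle, made up most of that difference. The median change of the list was −0.13, with 6 of 14 above 0, 2 at least 2-fold lower (Lyz2 and Vsig4) and 1 at least 2-fold higher, Fcgr1, at 71.2 FPKM with 4-OHT and 7.38 FPKM with vehicle. C1qa, second by the sum of both libraries, had a change of −0.26. The 11 endothelial markers, led by Egfl7 and Cdh5, summed to 1697 FPKM with 4-OHT and 1681 FPKM with vehicle. Egfl7 (0.68) and Cdh5 (0.09) were above 0, but the median change of the list was −0.52, and 4 of 11 lay above 0. Stab2 (−1.09) and Clec4g (−1.22), genes of sinusoidal endothelium, were at least 2-fold lower. Lyve1, another gene of that endothelium, had a change of 0.11. The 12 stellate markers with a row, of 14 listed, summed to 141 FPKM with 4-OHT and 330 FPKM with vehicle, and 6 of them were at least 2-fold lower. Beside the counts of these marker lists, 3.48% of all genes tested were lower and 5.78% higher by that size. Dcn and Acta2 had the largest sum over both libraries among the 12. Dcn lay within 2-fold, at 65.6 FPKM with 4-OHT and 121 FPKM with vehicle, and Acta2 was at 8.87 FPKM with 4-OHT and 86.8 FPKM with vehicle. The dendritic cell markers, led by Itgax and Zbtb46, summed to 64.1 FPKM with 4-OHT and 100 FPKM with vehicle over 4 genes of 8. The lymphocyte markers, with Cd4 and Cd3g first by the sum of both libraries, summed to 17.4 FPKM with 4-OHT and 17.7 FPKM with vehicle over 7 genes of 12. The neutrophil markers were 2 of 8, Csf3r (17.6 FPKM with 4-OHT and 7.38 FPKM with vehicle) and S100a8 (1.04 FPKM with 4-OHT and 2.58 FPKM with vehicle). The hepatocyte markers were near 0, with 3 of 12 genes summing to 0.545 FPKM with 4-OHT and 2.29 FPKM with vehicle, led by Alb and Apob. No marker with a row was listed at 0.

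**Figure D5:**
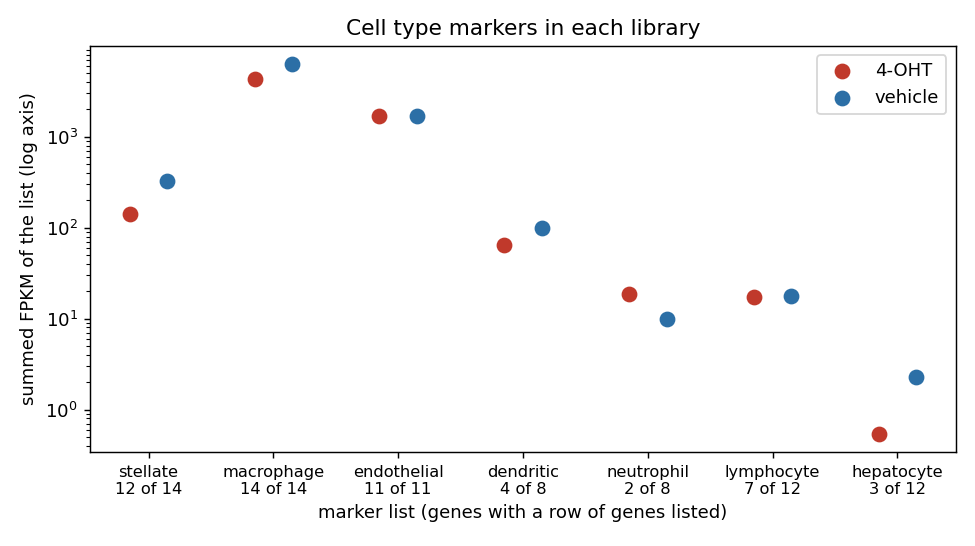
Summed FPKM on a log axis of the markers of each cell type, with the 4-OHT library in red at the left and the vehicle library in blue at the right, 1 library each; the numbers under each name are genes with a row of genes listed. Macrophage and endothelial markers sum above the stellate markers in both libraries.

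The listed NAD genes are known from several of these cell types. Cd38 was at 85.1 FPKM with 4-OHT and 100 FPKM with vehicle. The macrophage marker medians were 246 FPKM with 4-OHT and 299 FPKM with vehicle. The endothelial marker medians were 68.5 FPKM with 4-OHT and 147 FPKM with vehicle. For the stellate markers the medians were 3.13 FPKM with 4-OHT and 11.6 FPKM with vehicle. Marker medians do not show which cell type a transcript came from. The part of each cell type in the Nampt and Cd38 values was not tested. In such bulk RNA, fewer cells of a type and less RNA per cell cannot be told apart.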

How the data were processed

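The authors deposited 1 FPKM value per gene and library. Per the submitters' processing notes, STAR, Cufflinks and the build GRCm38 were used, without versions or roles. The deposited log2 fold change equals the log2 of FPKM plus 1, 4-OHT over vehicle. The deposited p-value and q-value compare these libraries, and how they estimated spread is not stated in the sources at hand. The −log10 and score columns the authors deposited were not used.

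Symbols were taken by gene identifier, 20 of which had a damaged symbol, and coordinates came from GENCODE M21. For the 17 symbols on more than 1 row, the row with the larger sum was used. Genes that reached 1 FPKM in either library were set against a 2-fold size, with no statistical test because n = 1 per group. FPKM summed to 553634 with 4-OHT and 493531 with vehicle. From genes with 1 transcript longer than 600 bases, a kilobase of effective length at 1 FPKM was found to equal 30.5 fragments with 4-OHT and 38.5 with vehicle. Of the low values of up to 10 fragments, 98.9% of 452 and 97.8% of 361 then lay within 0.1 of a whole number, against 20% by chance. Ratios have exact 95% binomial intervals (scipy 1.17.1) on fragments rebuilt from transcript length, which cover counting error only. For the listed genes, each with several transcripts, these are approximate. The depth and calling steps were tested on simulated data.

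All 10 genes were to be named, with the 4 genes of each related list that had the largest change and the 2 markers of each cell type with the highest FPKM summed over both libraries. Qprt, Parp1, Parp8, Parp10, Sirt1, Pnp2, Fcgr1, Vsig4, Stab2, Clec4g, Lyve1 and overlapping genes were named after their values were seen. The genes and lists were chosen with earlier results of these data known. Promoter windows came from RefSeq (GRCm38.p6), which held 5 of the 10 genes. Windows were printed where no annotated exon of the gene overlapped them. Pseudocounts, minimum values, scalings and fold sizes were varied.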

Additional observations from a re-analysis of the deposited data

How the results depend on the processing

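The count of 1 higher and 0 lower genes among the 5 held under pseudocounts of 0.1 and 5, no minimum, both rescalings and a 1.5-fold size. It also held among the 3 left by a minimum of 5 FPKM, which removes Naprt and Bst1, and at a 4-fold size it was 0 higher. The 1.5-fold size was applied with the added 1 FPKM. Without it the ratios of Bst1 (1.92) and Naprt (0.638) pass that size. The median change of the listed genes ran from 0.17 to 0.35. Scaling both libraries to the same sum of FPKM moved the median change of all genes to −0.13, against 0.03 as deposited, and gave 786 higher and 954 lower genes in place of 783 and 472. Under that scaling Nampt was at 1.25 and Cd38 at −0.40. Over all genes, a pseudocount of 5 gave 456 higher and 163 lower, a pseudocount of 0.1 gave 859 lower, a 1.5-fold size gave 1581 and 1386, and a 4-fold size gave 293 and 77. With a pseudocount of 0.1, Bst1 was at 0.86. Of 138 further values for single genes and related lists, 114 moved by less than counting error or 1.5 times, 24 moved by more and none of those at least 2-fold changed sign. No paired analysis was possible because each group had 1 library. No library could be left out for the same reason. Depth limits Bst1 and Naprt most, at 71 to 141 fragments per library.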
